A study of Mus musculus with 9 samples.

Results

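Catalase, the superoxide dismutases, the glutathione peroxidases and the peroxiredoxins were followed across 3 myeloid cell populations of mouse bone marrow. The genes were chosen by symbol: 10 were listed (Cat, Sod1, Sod2, Gpx1, Gpx4, Prdx1, Prdx2, Prdx4, Prdx5 and Prdx6), and each was read only from probe sets that the platform annotation assigns to that gene alone. By this rule 7 of the 10 were found, on 20 of the 45101 probe sets of the array, out of 18193 genes tested. Prdx1 was named on 5 probe sets that each name a further gene as well, so no value is given for it. Prdx5 and Prdx6 were named on no probe set in the annotation used here and were not analysed.

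RNA came from normal C57BL/6 mice, an inbred strain, of either sex and aged 4 to 10 weeks, and was hybridised to 9 Affymetrix arrays, 3 for each population. Neutrophils, the mature population, were sorted as marrow cells with Gr1 and Mac1 and without c-kit. Mac1+ myeloblasts carried c-kit, Gr1 and Mac1, and Mac1- myeloblasts carried c-kit and Gr1 with low or no Mac1. Both myeloblast populations also lacked a panel of lymphoid and erythroid surface antigens. Gr1 marks granulocytes, c-kit is the receptor for stem cell factor on immature cells, and Mac1 is an integrin whose alpha chain is encoded by Itgam. The labels do not say whether replicates came from separate animals or pools, so the p-values reflect variation among these arrays alone, which may be technical.

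These enzymes remove the reactive oxygen made by respiration and, in phagocytes, by the NADPH oxidase. Superoxide dismutases turn superoxide into hydrogen peroxide, in the cytosol (Sod1, which uses copper and zinc) or in the mitochondrial matrix (Sod2, which uses manganese). Hydrogen peroxide is then broken down by catalase in peroxisomes, by glutathione peroxidases at the expense of glutathione, and by peroxiredoxins, which most often are reduced again by thioredoxin. Gpx1 and Gpx4 are selenoproteins, and Gpx4 reduces lipid peroxides within membranes. Prdx2 is cytosolic and is best known from red cells, whereas Prdx4 works in the endoplasmic reticulum, where it couples peroxide removal to disulfide bond formation.

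The 250 bases before the transcription start are shown for 3 genes. Prdx4 had the largest difference between populations among the 7. Sod1 alone among them had a window with the core of the antioxidant response element. Gpx1, with small differences, held none of the motifs searched, and neither did Prdx2, whose differences were large. The sequences are those of RefSeq on the build GRCm38.p6, in the direction of the gene. Prdx4 lies at chrX:155338461-155338710, minus strand. That window falls inside the annotated span of the gene, chrX:155323918-155342272, so the start it precedes is not the outermost end of that span. Sod1 lies at chr16:90220512-90220761, plus strand. Gpx1 lies at chr9:108338830-108339079, plus strand. Capitals mark matches, on either strand, to TGACNNNGC (the core of the element bound by Nrf2 with a small Maf protein), GGGCGG (the GC box) or CCAAT, and overlapping matches run together.
Prdx4: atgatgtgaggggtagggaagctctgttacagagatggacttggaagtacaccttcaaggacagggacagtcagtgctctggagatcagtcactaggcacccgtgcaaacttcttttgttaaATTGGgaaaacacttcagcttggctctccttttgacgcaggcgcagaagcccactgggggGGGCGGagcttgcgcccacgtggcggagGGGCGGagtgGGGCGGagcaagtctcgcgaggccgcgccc
Sod1: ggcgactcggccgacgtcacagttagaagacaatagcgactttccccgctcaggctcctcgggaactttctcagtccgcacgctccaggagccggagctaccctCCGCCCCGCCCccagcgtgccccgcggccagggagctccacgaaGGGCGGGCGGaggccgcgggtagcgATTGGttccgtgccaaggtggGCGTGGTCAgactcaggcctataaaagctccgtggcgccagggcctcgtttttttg
Gpx1: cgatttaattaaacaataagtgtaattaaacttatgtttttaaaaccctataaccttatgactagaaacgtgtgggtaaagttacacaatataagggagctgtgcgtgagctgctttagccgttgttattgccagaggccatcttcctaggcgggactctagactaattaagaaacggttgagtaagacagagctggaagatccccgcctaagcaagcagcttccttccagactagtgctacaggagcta

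All 7 genes were matched to the promoter table, with 10 windows in all because Gpx4 has several start sites. TGACNNNGC was found in 1 of the 7 genes, GGGCGG in 5 and CCAAT in 5, where a gene counts if any of its windows matched. Counted by window, as the shares that follow are, it was 1, 7 and 7 of the 10. Some of the Gpx4 windows overlap each other. Among 32851 windows of the same length from all genes, 10.2% held TGACNNNGC, 32.7% held GGGCGG and 33.8% held CCAAT. A match describes the letters only.

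Markers of the sorted cells were read first. Intensities of Kit, which encodes c-kit, lay between 94.9 and 331 in neutrophils, against 3176 to 3469.9 in Mac1+ and 2998 to 3228 in Mac1- myeloblasts. All 9 neutrophil markers measured were higher in neutrophils than in Mac1- myeloblasts, and 5 of the 9 were higher than in Mac1+ myeloblasts, where S100a8, S100a9, Camp and Ltf were not called. Median intensity per array was 39.1 to 61.8, the highest being that of neutrophil array 1, which correlated less with its group (r = 0.940 and 0.926 over genes) than neutrophil arrays 2 and 3 did with each other (0.986). Myeloperoxidase (Mpo), a product of immature granulocytes, stood at 7132 there, against 1712 and 778 on neutrophil arrays 2 and 3. That array also had the highest ratio of 3′ to 5′ probe sets for the control transcript Gapdh, 2.70, against 1.92 to 2.47 on the others, whereas its ratio for beta-actin, 1.55, lay near the low end of 1.52 to 2.49. In bulk RNA, fewer cells of a type and less RNA per cell cannot be told apart.

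Most of the enzymes were lower in neutrophils than in both myeloblast populations. The largest differences were those of the peroxiredoxins: Prdx2 was 15.7-fold lower in neutrophils than in Mac1- myeloblasts, and Prdx4 was 23.3-fold lower in neutrophils and 28.2-fold lower in Mac1+ myeloblasts than in Mac1- myeloblasts. Differences are of log2(intensity + 16) ± standard error from one limma model of all 9 arrays. Folds are on that scale, which understates changes of dim probe sets, and a gene was called when its p, adjusted by Benjamini-Hochberg over the 18193 genes, was under 0.05. Of the 7, limma called 5 lower and 0 higher in neutrophils than in Mac1+ myeloblasts, where 28.4% of all genes were lower, 19.7% higher and 48.1% called. It called 6 lower and 0 higher in neutrophils than in Mac1- myeloblasts, where 30% of all genes were lower, 22.6% higher and 52.6% called. It called 4 lower and 0 higher in Mac1+ than in Mac1- myeloblasts, where 5.51% of all genes were lower, 6.31% higher and 11.8% called. The median difference of the 7 was -1.08, -1.76 and -0.68 in these comparisons, beside 0.05, 0.05 and -0.01 over all genes. Each population enters 2 of the 3 comparisons, so they share arrays. At an unadjusted p under 0.05 the number higher was also 0 in each.

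**Figure D1:**
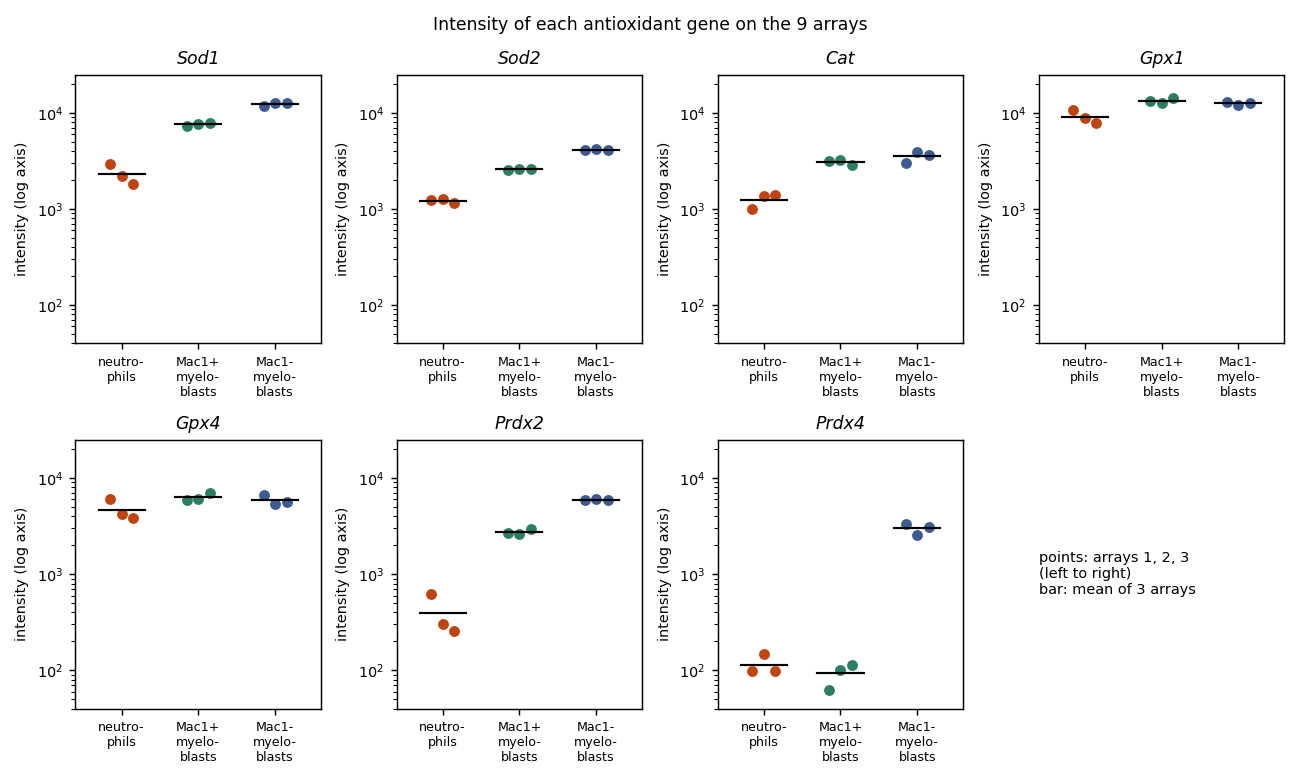
Intensity (log axis) of the 7 genes on each array in neutrophils, Mac1+ myeloblasts and Mac1- myeloblasts; points are arrays 1 to 3 from left to right and bars are means. Neutrophils lie lowest for Sod1, Sod2, Cat and Prdx2, and for Prdx4 only Mac1- myeloblasts stand high.

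Sod1, the cytosolic dismutase, was called in all 3 comparisons when 1 probe set was read for each gene. Its brightest probe set read 2953, 2215 and 1825 in neutrophils, 7253, 7646 and 7891 in Mac1+ myeloblasts, and 11851, 12606 and 12630.4 in Mac1- myeloblasts. No array of one population overlapped another, and neutrophils were lowest. The difference of neutrophils was -1.72 ± 0.18 (3.31-fold lower, adjusted p = 4.43e-05) from Mac1+ and -2.43 ± 0.18 (5.38-fold lower, adjusted p = 3.58e-06) from Mac1- myeloblasts. Mac1+ differed from Mac1- myeloblasts by -0.70 ± 0.18 (1.63-fold lower, adjusted p = 0.0377). That last call was lost when any 1 of the 6 myeloblast arrays or neutrophil array 2 was left out (adjusted p from 0.0544 to 0.133). The gene has 5 probe sets, which did not all behave alike. A further bright one read 1966, 2348 and 1916 in neutrophils, 4025, 4305 and 4659.5 in Mac1+ myeloblasts, and 8017, 8518 and 8596 in Mac1- myeloblasts, with differences of -1.06, -2.01 and -0.95, and was called lower in all 3 comparisons. With every probe set tested, 3 of the 5 were called lower in both neutrophil comparisons. Between the myeloblast populations 1 of the 5 was called, and the brightest was not (adjusted p = 0.0521). Of the others, one was at most 12.6 on every array, and one had differences of -0.49, -0.65 and -0.16 (adjusted p = 0.0351, 0.00861 and 0.772). Another read 439, 97.5 and 67.0 in neutrophils and 75.0 to 81.8 in Mac1+ myeloblasts, a difference of 0.80 (adjusted p = 0.272).

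Sod2, the mitochondrial dismutase, took the same order with little spread. It read 1224, 1261 and 1156 in neutrophils, 2524, 2613 and 2589.6 in Mac1+ myeloblasts, and 4093, 4179.6 and 4129 in Mac1- myeloblasts. The 3 ranges lie apart. Neutrophils differed by -1.08 ± 0.12 (2.11-fold lower, adjusted p = 6.70e-05) from Mac1+ and -1.76 ± 0.12 (3.38-fold lower, adjusted p = 2.05e-06) from Mac1- myeloblasts. Mac1+ differed from Mac1- myeloblasts by -0.68 ± 0.12 (1.60-fold lower, adjusted p = 0.00621). All 4 probe sets of Sod2 were called lower in neutrophils in both comparisons. Between the myeloblast populations 1 of the 4 was called, though all 4 had differences below 0.

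Cat, the gene of catalase, was lower in neutrophils than in either myeloblast population. Intensities were 998, 1369 and 1389.8 in neutrophils, 3187, 3219 and 2834 in Mac1+ myeloblasts, and 3035, 3921 and 3620.2 in Mac1- myeloblasts. Neutrophils lie below every myeloblast array, while the myeloblast ranges overlap. The difference of neutrophils was -1.30 ± 0.18 (2.46-fold lower, adjusted p = 0.000240) from Mac1+ and -1.49 ± 0.18 (2.81-fold lower, adjusted p = 8.21e-05) from Mac1- myeloblasts. The difference of Mac1+ from Mac1- myeloblasts was -0.19 ± 0.18, with a 95% interval from -0.59 to 0.21 (adjusted p = 0.686). The other probe set of Cat gave larger differences in neutrophils, -2.50 and -2.72, and was spread more widely there, at 88.4, 541 and 699. Its lowest value was on neutrophil array 1, on which the probe sets used for Sod1, Gpx1, Gpx4 and Prdx2 had their highest neutrophil values. Further probe sets of these genes were mixed: some of Sod1 were highest there, while others of Sod1 and that of Gpx4 were not. The further probe set of Prdx2 was lowest there, at 22.8 against 59.2 and 72.7 on neutrophil arrays 2 and 3.

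The glutathione peroxidases differed less. Gpx1, the cytosolic enzyme, read 10619.8, 8806 and 7811 in neutrophils, 13115, 12714 and 14239 in Mac1+ myeloblasts, and 12892, 12164 and 12568 in Mac1- myeloblasts. Neutrophils were below all myeloblast arrays, and the myeloblast populations overlapped. Neutrophils differed by -0.57 ± 0.15 (1.48-fold lower, adjusted p = 0.0124) from Mac1+ and -0.48 ± 0.15 (1.39-fold lower, adjusted p = 0.0252) from Mac1- myeloblasts. These calls depend on how arrays are scaled. With quantile normalization they were lost (adjusted p = 0.0625 and 0.0726). With each array centred on its median the differences were -0.28 and -0.01 (adjusted p = 0.0724 and 0.948). The call against Mac1- myeloblasts was also lost without neutrophil array 2 or 3 or any 1 Mac1- array (adjusted p from 0.0585 to 0.0752). Mac1+ and Mac1- myeloblasts differed by 0.09 ± 0.15 (95% interval -0.25 to 0.43, adjusted p = 0.870).

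Gpx4, the enzyme for lipid peroxides, was not called in any comparison of the ordinary fit to all 9 arrays. It read 6064, 4204 and 3850.0 in neutrophils, 5896, 6112 and 7055 in Mac1+ myeloblasts, and 6666, 5371 and 5699 in Mac1- myeloblasts. Neutrophil array 1 lies within the myeloblast ranges and the other neutrophil arrays lie below them. The difference of neutrophils was -0.46 ± 0.20 from Mac1+ (95% interval -0.90 to -0.01, adjusted p = 0.0870) and -0.35 ± 0.20 from Mac1- myeloblasts (-0.80 to 0.10, adjusted p = 0.169). For Mac1+ against Mac1- myeloblasts it was 0.11 ± 0.20 (-0.34 to 0.55, adjusted p = 0.890). Without neutrophil array 1 Gpx4 was called lower in neutrophils, with -0.65 against Mac1+ (adjusted p = 0.00423) and -0.55 against Mac1- myeloblasts (adjusted p = 0.00950). Array weights also called it lower in both comparisons (adjusted p = 0.00102 and 0.00236), and a trended and robust variance prior called it lower against Mac1+ myeloblasts (adjusted p = 0.0448). Centring the arrays turned the difference from Mac1- myeloblasts to 0.12. These settings were run on the brighter probe set of the gene. The other probe set of Gpx4 read 4009, 4581 and 3762 in neutrophils, so array 1 was not the highest there. Its neutrophil differences were -0.34 from Mac1+ and -0.17 from Mac1- myeloblasts (adjusted p = 0.206 and 0.509), and it was not called in any comparison.

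Prdx2, the cytosolic peroxiredoxin, had the largest difference of the 7 between neutrophils and Mac1+ myeloblasts. It read 619, 307 and 254 in neutrophils, 2673, 2637 and 2943 in Mac1+ myeloblasts, and 5958, 6112 and 5876 in Mac1- myeloblasts. The populations do not overlap, and neutrophils were lowest. The difference of neutrophils was -2.86 ± 0.28 (7.25-fold lower, adjusted p = 2.77e-05) from Mac1+ and -3.98 ± 0.28 (15.7-fold lower, adjusted p = 2.45e-06) from Mac1- myeloblasts. Without neutrophil array 1 these differences were -3.23 and -4.34. Mac1+ differed from Mac1- myeloblasts by -1.12 ± 0.28 (2.17-fold lower, adjusted p = 0.0332), a call lost when any 1 of the 6 myeloblast arrays was left out (adjusted p from 0.0859 to 0.113). The other probe set of Prdx2 was called lower in all 3 comparisons, with differences of -2.03, -3.74 and -1.70.

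Because Prdx2 is abundant in red cells, erythroid markers were read beside it. Globin alpha (Hba-a1) was at most 27.0, the heme synthesis gene Alas2 at most 55.7 and the red cell anion exchanger gene Slc4a1 at most 28.0 on every array. The 11 erythroid markers measured summed to 898 to 954 in neutrophils, 7899.7 to 8318 in Mac1+ and 5052 to 5799.7 in Mac1- myeloblasts. Most of the sum in myeloblasts was the transferrin receptor gene Tfrc, which proliferating cells also express, at 162 to 516 in neutrophils, 7621 to 7904 in Mac1+ and 4680.1 to 5375 in Mac1- myeloblasts. Of the 11, 2 were higher and 2 lower in neutrophils than in Mac1+ myeloblasts (19.7% and 28.4% of all genes). Against Mac1- myeloblasts 2 were higher and 4 lower in neutrophils (22.6% and 30% of all genes). Between the myeloblast populations 0 were called. The part of erythroid cells in the Prdx2 result was not tested.

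Prdx4, the peroxiredoxin of the endoplasmic reticulum, was high in Mac1- myeloblasts alone. It read 97.3, 147 and 98.6 in neutrophils, 63.0, 101 and 114 in Mac1+ myeloblasts, and 3363, 2543 and 3092 in Mac1- myeloblasts. Neutrophils and Mac1+ myeloblasts overlap, far below Mac1- myeloblasts. Mac1+ differed from Mac1- myeloblasts by -4.82 ± 0.24 (28.2-fold lower, adjusted p = 4.04e-06), and 0.022% of all genes had a lower difference there. Neutrophils differed from Mac1- myeloblasts by -4.55 ± 0.24 (23.3-fold lower, adjusted p = 3.43e-07). The difference of neutrophils from Mac1+ myeloblasts was 0.27 ± 0.24, with a 95% interval from -0.26 to 0.80 (adjusted p = 0.376). All 4 probe sets of the gene were called lower in Mac1+ than in Mac1- myeloblasts, with differences of -4.82, -4.50, -4.41 and, for one at most 22.5 on every array, -0.69. For neutrophils against Mac1+ myeloblasts 1 of the 4 had a difference below 0 (-0.27), and none was called.

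Monocyte and macrophage markers were also lower in Mac1+ than in Mac1- myeloblasts. Of 9 measured, 6 were lower and 1 higher there, and their intensities summed to 10850.2 to 12755 in Mac1+ and 27693 to 29589 in Mac1- myeloblasts. In neutrophils the sum was 15562 to 22036. Against Mac1- myeloblasts 5 of the 9 were lower and 2 higher in neutrophils, with a median difference of -0.93, and against Mac1+ myeloblasts 2 were lower and 4 higher. The part of such cells in the Prdx4 result was not tested.

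**Figure D2:**
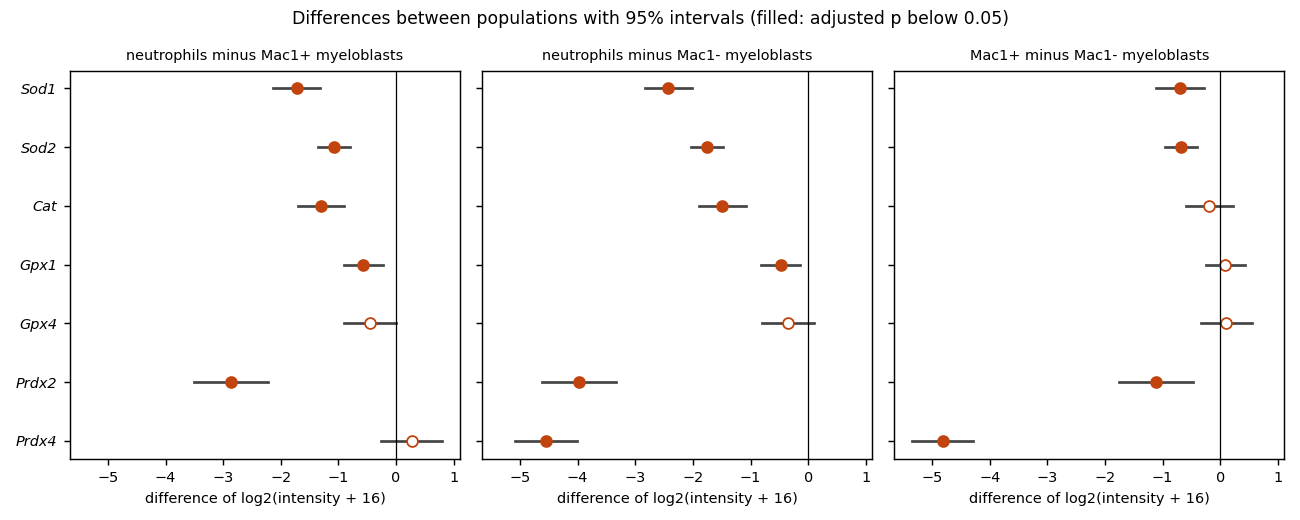
Difference of log2(intensity + 16) with its 95% interval for neutrophils against Mac1+ myeloblasts, neutrophils against Mac1- myeloblasts, and Mac1+ against Mac1- myeloblasts; filled points have an adjusted p under 0.05. Prdx4 is near 0 in the first comparison and has the lowest value in the others.

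The groups did not overlap for 5 of the 7 genes between neutrophils and Mac1+ myeloblasts, all with neutrophils lower, as for 30.9% of all genes (23.8% lay wholly higher). Neutrophils lay wholly below Mac1- myeloblasts for 6 of the 7, against 32.6% of all genes (26.5% wholly higher). Mac1+ lay wholly below Mac1- myeloblasts for 4 of the 7, against 20.1% of all genes (19.8% wholly higher). Over the 20 probe sets, each tested among all probe sets that name 1 gene, 12, 15 and 8 were called lower in the 3 comparisons and none was called higher. Of all 34945 such probe sets, 24.8% were lower and 19% higher in neutrophils than in Mac1+ myeloblasts, 26.5% lower and 21.6% higher in neutrophils than in Mac1- myeloblasts, and 4.11% lower and 4.67% higher in Mac1+ than in Mac1- myeloblasts.

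**Figure D3:**
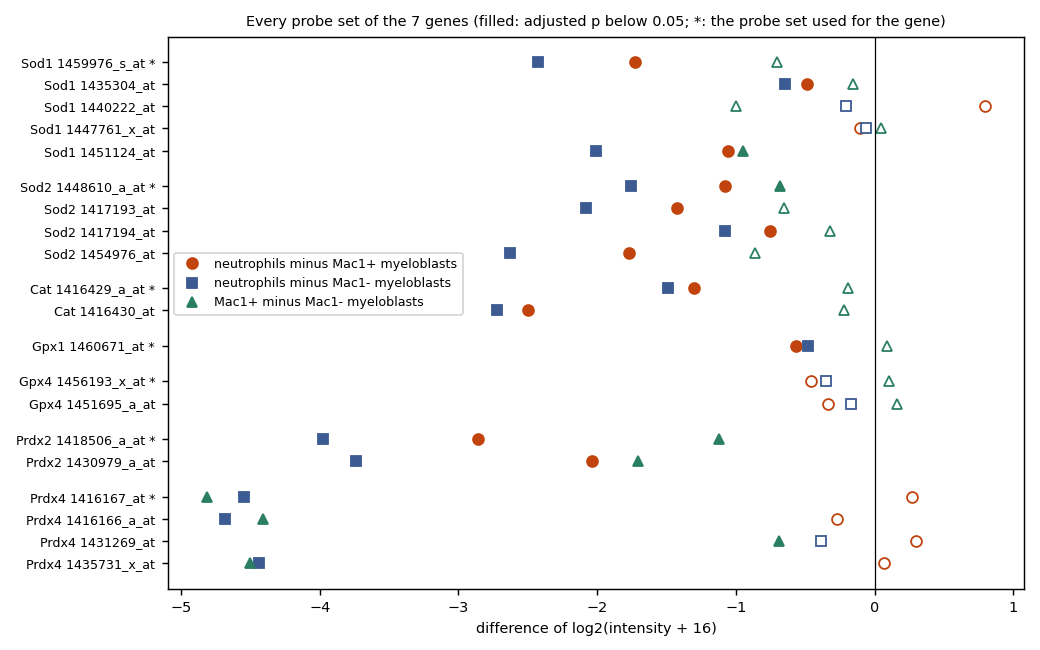
Difference of log2(intensity + 16) of each of the 20 probe sets of the 7 genes in the 3 comparisons; filled symbols have an adjusted p under 0.05 and an asterisk marks the probe set used for the gene. For neutrophils against Mac1+ myeloblasts the widest spread within a gene is that of the 5 probe sets of Sod1.

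The genes were also set against all genes brighter than the median gene by Pearson's correlation over the 9 arrays, as a description. The arrays form 3 groups, so any gene that separates them in the same way scores high. For Prdx2 the closest gene was Sod1 (r = 0.999). For Prdx4 the closest were Stxbp6, Il6st and S100a10 (r = 0.995, 0.995 and 0.993), and its correlation with Gpx4 was 0.19. For Gpx4 the closest were Cox6a1, a subunit of cytochrome oxidase, Ppp2ca and Rpl37a (r = 0.984, 0.974 and 0.971).

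The rest of each enzyme family was read next. The counts of this and the following lists are to be read beside the shares of all genes. These were 28.4% lower and 19.7% higher in neutrophils than in Mac1+ myeloblasts, and 30% lower and 22.6% higher than in Mac1- myeloblasts. For Mac1+ against Mac1- myeloblasts they were 5.51% lower and 6.31% higher. Of 9 further genes (Sod3, Prdx3, other glutathione peroxidases, and Ccs, the copper chaperone of Sod1), 4 were lower and 2 higher in neutrophils than in Mac1+ myeloblasts, and 5 lower and 2 higher than in Mac1- myeloblasts. The 2 higher, Gpx2 and Gpx8, were dim (at most 106 and 41.3 on any array). With the dimmest genes left out, 0 were higher in either comparison and 3 rather than 5 lower against Mac1- myeloblasts. Without Mac1- array 3, with quantile normalization or with a trended and robust variance prior, 1 was higher against Mac1- myeloblasts. Prdx3, the mitochondrial peroxiredoxin, read 255, 253 and 291 in neutrophils, 1280.2, 1354 and 1605 in Mac1+ myeloblasts, and 2344, 2129 and 2052 in Mac1- myeloblasts. It lay in the same order as Sod2, with neutrophil differences of -2.33 ± 0.15 against Mac1+ and -2.96 ± 0.15 against Mac1- myeloblasts (adjusted p = 1.50e-06 and 2.69e-07). Ccs had neutrophil differences of -2.08 ± 0.16 against Mac1+ and -2.29 ± 0.16 against Mac1- myeloblasts (adjusted p = 5.79e-06 and 2.42e-06). Gpx3, the secreted glutathione peroxidase, was highest in Mac1+ myeloblasts, with neutrophil differences of -3.94 ± 0.24 against Mac1+ and -2.61 ± 0.24 against Mac1- myeloblasts (adjusted p = 1.31e-06 and 1.49e-05) and a difference of 1.33 ± 0.24 between Mac1+ and Mac1- myeloblasts (adjusted p = 0.00677).

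The thioredoxin and glutaredoxin system was mixed. Of 12 genes, 5 were lower and 3 higher in neutrophils than in Mac1+ myeloblasts, and 5 lower and 4 higher than in Mac1- myeloblasts. Between the myeloblast populations 1 was higher in Mac1+, Glrx, and 11 were not called, a share called of 8.33% beside 11.8% of all genes. The Glrx call was lost without Mac1- array 2 or 3 (adjusted p = 0.0543 and 0.0534). Txnrd2, the mitochondrial thioredoxin reductase, fell in neutrophils, with differences of -2.82 ± 0.18 against Mac1+ and -3.32 ± 0.18 against Mac1- myeloblasts (adjusted p = 1.81e-06 and 4.99e-07). Glrx5, a mitochondrial glutaredoxin of iron-sulfur cluster assembly, fell too, at -2.67 ± 0.14 against Mac1+ and -3.01 ± 0.14 against Mac1- myeloblasts (adjusted p = 4.41e-07 and 1.60e-07). Txnip, which binds and inhibits thioredoxin, rose in neutrophils, with 1.50 ± 0.17 against Mac1+ and 1.97 ± 0.17 against Mac1- myeloblasts (adjusted p = 7.92e-05 and 1.02e-05). Leaving out probe sets with a suffix (names ending in _x_at, _s_at or _a_at) gave 2 rather than 5 genes lower in each neutrophil comparison.

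Genes of glutathione synthesis, reduction, transport and breakdown were mixed. Of all genes tested, 19.7% were higher and 28.4% lower in neutrophils than in Mac1+ myeloblasts, and 22.6% higher and 30% lower than in Mac1- myeloblasts. Of the 10 on this list, 5 were higher and 2 lower against Mac1+ myeloblasts and 6 were higher and 3 lower against Mac1- myeloblasts, with median differences of 0.76 and 1.17. The synthesis genes were not among those higher: Gclc was lower in both comparisons, Gss was lower against Mac1- myeloblasts and Gclm was not called in either. Higher in both were Ggt5, Chac1, Chac2 and Oplah, of glutathione breakdown, and the transporter gene Slc7a11. Slc3a2, also of transport, was lower in both (-0.65 and -1.16, adjusted p = 0.00431 and 9.56e-05). The reductase gene Gsr was higher against Mac1- myeloblasts (0.78, adjusted p = 0.00999) and not called against Mac1+ myeloblasts. Gclc, the catalytic subunit of the first enzyme of synthesis, read 402, 101 and 81.4 in neutrophils, 988, 1175 and 1146 in Mac1+ myeloblasts, and 1759, 1716 and 1590.2 in Mac1- myeloblasts. Neutrophil array 1 stood above the other neutrophil arrays, and all 3 lay below the myeloblasts. The neutrophil differences were -2.73 ± 0.47 against Mac1+ and -3.34 ± 0.47 against Mac1- myeloblasts (adjusted p = 0.000994 and 0.000233). The cystine transporter gene Slc7a11 went the other way, at 129, 294 and 374 in neutrophils, 32.1, 30.8 and 24.6 in Mac1+ myeloblasts, and 21.0, 18.5 and 11.4 in Mac1- myeloblasts, with neutrophil differences of 2.53 ± 0.33 against Mac1+ and 2.99 ± 0.33 against Mac1- myeloblasts (adjusted p = 0.000178 and 4.83e-05). Ggt5, an enzyme that cleaves glutathione conjugates, had neutrophil differences of 3.99 ± 0.23 against Mac1+ and 3.76 ± 0.23 against Mac1- myeloblasts (adjusted p = 9.91e-07 and 1.06e-06). Chac1, which degrades glutathione, was higher in Mac1+ than in Mac1- myeloblasts by 2.29 ± 0.21 (adjusted p = 0.000124) and in neutrophils, by 1.31 ± 0.21 against Mac1+ and 3.60 ± 0.21 against Mac1- myeloblasts (adjusted p = 0.000654 and 6.91e-07).

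Glutathione transferases fell in neutrophils in most cases. Of 13, 9 were lower and 2 higher than in Mac1+ myeloblasts and 10 lower and 2 higher than in Mac1- myeloblasts, while between the myeloblast populations 12 were not called. Gstm1 read 392, 252 and 195 in neutrophils, 11773, 10716 and 13490.0 in Mac1+ myeloblasts, and 10324, 8622 and 9263 in Mac1- myeloblasts. Neutrophils lay far below both myeloblast populations, with differences of -5.39 ± 0.24 against Mac1+ and -5.04 ± 0.24 against Mac1- myeloblasts (adjusted p = 2.05e-07 and 1.99e-07). Gsto1 had neutrophil differences of -4.14 ± 0.20 against Mac1+ and -4.25 ± 0.20 against Mac1- myeloblasts (adjusted p = 2.96e-07 and 1.78e-07). Transferases of this family share sequence, so probe sets of one can take up RNA of another.

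Of 8 genes of selenoprotein synthesis, 6 were lower and 2 higher in each neutrophil comparison, and 0 were called by limma between the myeloblast populations, also at an unadjusted p under 0.05. Eefsec, the elongation factor for selenocysteine, read 77.1, 54.9 and 39.6 in neutrophils, 487, 583 and 636 in Mac1+ myeloblasts, and 703, 658 and 648 in Mac1- myeloblasts. All neutrophil values lay below all myeloblast values, with differences of -3.02 ± 0.20 against Mac1+ and -3.26 ± 0.20 against Mac1- myeloblasts (adjusted p = 2.22e-06 and 1.06e-06). Pstk, a kinase of the tRNA that carries selenocysteine, had neutrophil differences of -3.57 ± 0.29 against Mac1+ and -4.04 ± 0.29 against Mac1- myeloblasts (adjusted p = 8.23e-06 and 2.90e-06). The 2 that rose were Sephs2, a selenophosphate synthetase, and Secisbp2, which binds the selenocysteine insertion element. Against Mac1+ myeloblasts 1 rather than 2 was higher without any 1 of the 3 Mac1+ arrays and with the third population left out of the fit, and in both neutrophil comparisons when probe sets were averaged for each gene. Sephs1, among the 6 lower, lost its call against Mac1- myeloblasts without suffixed probe sets (-0.03, adjusted p = 0.872). With array weights 2 of the 8 were higher in Mac1+ than in Mac1- myeloblasts, as were 2904 of the 18193 genes. Gpx1 and Gpx4, made with selenocysteine, had small differences as given above.

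Among 12 regulators and targets of Nrf2, the transcription factor of the antioxidant response, 5 were higher and 1 lower in neutrophils than in Mac1+ myeloblasts, and 8 higher and 1 lower than in Mac1- myeloblasts. The 1 lower, Keap1, which holds Nrf2 in check, lost its call without neutrophil array 2 or 3 in both comparisons, without Mac1+ array 2 or 3 in the first and without Mac1- array 1 or 2 in the second. It was also lost in both with quantile normalization or centred arrays. In the first comparison it was lost as well with a block on replicate number or in a fit of just the compared populations. Without neutrophil array 1 the number higher against Mac1+ myeloblasts was 8, and with quantile normalization or centred arrays it was 10. Hmox1, heme oxygenase 1, read 729, 799 and 835 in neutrophils, 80.3, 84.9 and 77.7 in Mac1+ myeloblasts, and 55.2, 85.4 and 75.9 in Mac1- myeloblasts. It rose in neutrophils, with differences of 3.05 ± 0.16 against Mac1+ and 3.20 ± 0.16 against Mac1- myeloblasts (adjusted p = 5.61e-07 and 3.05e-07). Bach1, a repressor of Hmox1, rose too, with 1.50 ± 0.15 against Mac1+ and 1.89 ± 0.15 against Mac1- myeloblasts (adjusted p = 3.84e-05 and 6.46e-06). Nfe2l2, the gene of Nrf2, was higher in Mac1+ than in Mac1- myeloblasts by 0.65 ± 0.13 (adjusted p = 0.0110), a call lost without Mac1+ array 1 or any 1 Mac1- array (adjusted p from 0.0503 to 0.0522).

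Genes of the supply of NADPH, which feeds both glutathione and thioredoxin reduction, numbered 10. Of these, 1 was higher and 4 lower in neutrophils against Mac1+ myeloblasts, and 2 higher and 4 lower against Mac1- myeloblasts. The shares called, 50% and 60%, lay near those of all genes, 48.1% and 52.6%. Nadk, the kinase that makes NADP, rose in neutrophils, with 1.25 ± 0.15 against Mac1+ and 1.70 ± 0.15 against Mac1- myeloblasts (adjusted p = 0.000119 and 1.25e-05). Idh2, the mitochondrial NADP-dependent isocitrate dehydrogenase, had neutrophil differences of -3.45 ± 0.18 against Mac1+ and -4.08 ± 0.18 against Mac1- myeloblasts (adjusted p = 4.88e-07 and 1.36e-07), which turned positive on a probe set without a suffix. On the side of oxidant production, 6 of 7 genes were higher in Mac1+ than in Mac1- myeloblasts. In neutrophils 5 of 7 were higher than in Mac1- myeloblasts and 1, Mpo, was lower (-2.98 ± 0.64, adjusted p = 0.00355). Cybb, the catalytic subunit of the NADPH oxidase, was higher than in Mac1- myeloblasts by 1.93 ± 0.16 in Mac1+ myeloblasts and by 2.08 ± 0.16 in neutrophils (adjusted p = 8.49e-05 and 4.76e-06). For neutrophils against Mac1+ myeloblasts limma called 0 of the 7 higher and 2 lower, Mpo (-2.93 ± 0.64) and Hvcn1 (-0.99 ± 0.14). The numbers were the same at an unadjusted p under 0.05, and 3 were higher with quantile normalization or centred arrays.

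**Figure D4:**
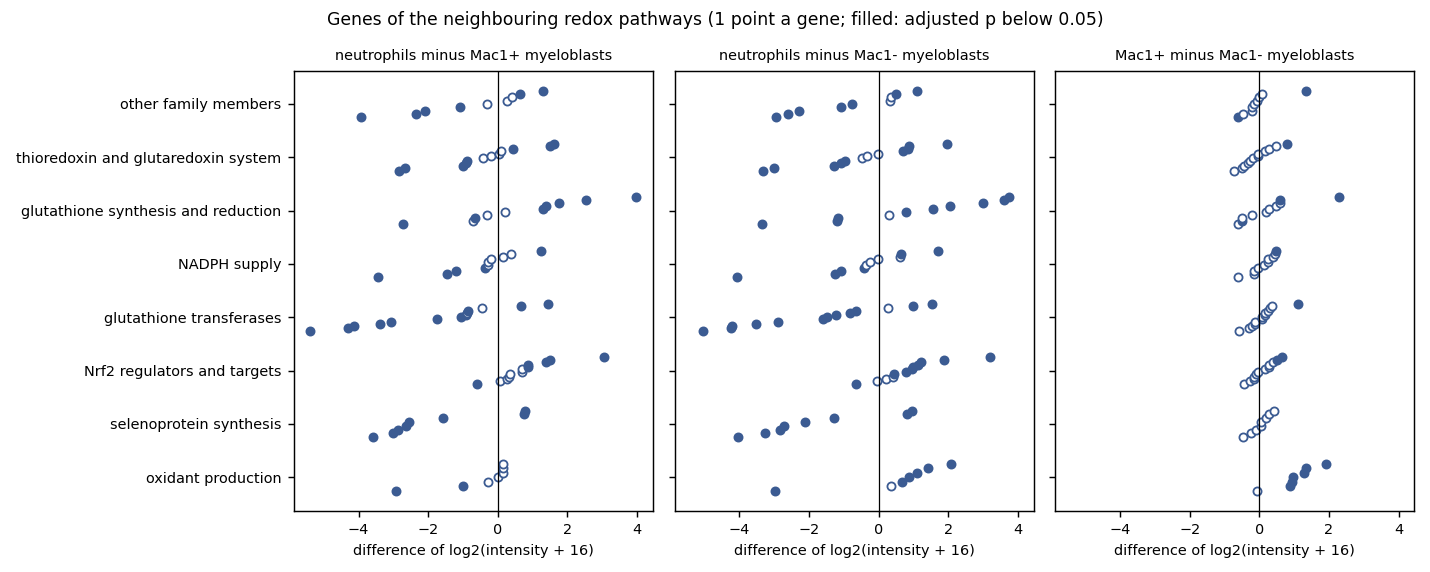
Difference of log2(intensity + 16) of each gene of 8 redox lists in the 3 comparisons, 1 point a gene, filled where the adjusted p is under 0.05. Points spread widely in both neutrophil comparisons, and in Mac1+ against Mac1- myeloblasts the oxidant production genes lie mostly right of 0.

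Scaling bears on all of these values. Centring each array on its median moved the median difference of all genes to 0.33 for neutrophils against Mac1+, 0.51 for neutrophils against Mac1- and 0.17 for Mac1+ against Mac1- myeloblasts. The share of called genes that were higher became 59.0, 65.8 and 70.8%, beside 41.0, 42.9 and 53.4% with the values as deposited, and 50.8, 50.6 and 55.7% with quantile normalization. On centred arrays the neutrophil differences from Mac1+ and Mac1- myeloblasts were -2.58 and -3.51 for Prdx2, -1.44 and -1.96 for Sod1, -0.79 and -1.29 for Sod2, and -1.02 and -1.02 for Cat, all still called.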

How the data were processed

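Per the labels' protocols, RNA of sorted marrow cells was amplified in a pair of cycles, labelled with biotin and hybridised. The authors deposited linear intensity values for 45101 probe sets on 9 arrays. The software, background correction and scaling behind them are not given in the sources used here. Values were used as deposited, as log2(intensity + 16). Of the probe sets 34945 name 1 gene in the platform annotation, 932 several and 9160 none, and 64 are controls. By gene ID 99.4% of those with 1 gene were matched to RefSeq on GRCm38.p6, and 0 symbols changed. Each of 18193 genes was read from its brightest probe set by mean level (9010 genes have several).

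Groups come from the titles. The 3 populations were compared in 1 model without a block, using limma (version 3.58.1, R 4.3.3), with Benjamini-Hochberg adjustment over all genes, and the procedure was tested on simulated data. At an unadjusted p under 0.05, 9829, 10452 and 3961 genes passed for neutrophils against Mac1+, neutrophils against Mac1- and Mac1+ against Mac1- myeloblasts. The number of arrays limits the precision. Named genes are the members and, in each list and comparison, from the called genes with the largest differences. Markers were named beside results, and some further list genes, such as Sephs2, Secisbp2, Slc3a2 and Gsr, after their values were seen. The members and lists were chosen with earlier results of these data known. Other settings tried were a block on replicate number, quantile normalization, centred arrays, an offset of 1 or 64, removal of the dimmest 40% of genes, other uses of probe sets, a trended and robust variance prior, array weights, fits of just the compared populations, and omission of each array in turn.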

Additional observations from a re-analysis of the deposited data

How the results depend on the processing

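Of 453 values of the 7 genes' differences under the alternatives, 404 kept direction and side of the threshold, 39 lost the call, 6 gained one and 4 reversed. Of 1588 such values for other named genes, 1530 kept both, 56 lost the call and 2 reversed. Those of the 7 that reversed were the neutrophil difference from Mac1- myeloblasts of Gpx4 on centred arrays (0.12), the neutrophil difference from Mac1+ myeloblasts of Prdx4 (-0.27) and of Sod1 (0.80) on other probe sets, and the difference of Mac1+ from Mac1- myeloblasts of Sod1 on a dim one (0.045). Idh2 reversed to 1.78 and 1.81 in the neutrophil comparisons without suffixed probe sets, which reads another probe set. Otherwise the cause was not tested.

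The 4 genes of the 7 lower in Mac1+ than in Mac1- myeloblasts became 2 with the replicate block, with an offset of 1, with the average over each gene's probe sets, and where all probe sets of a gene had to be called, and 2 to 4 when 1 array was left out. Same-numbered arrays of different populations correlated from -0.31 to 0.13 in their deviations from group means. These correlations cannot tell whether the numbers pair arrays, because groups are small and differently numbered arrays were not compared in this way. With the replicate block Gpx1 was not called in neutrophils against Mac1- myeloblasts (adjusted p = 0.0505). Array weights called 1 gene of the 7 higher, Prdx4 in neutrophils against Mac1+ myeloblasts (0.50, adjusted p = 0.0265).

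Over all genes, centred arrays gave 6131, 8147 and 1724 higher in the 3 comparisons, beside 3591, 4109 and 1148. Array weights gave 5831, 6202 and 2904 higher, and 2856 lower in Mac1+ than in Mac1- myeloblasts, beside 1003. Testing every probe set gave 6638 higher and 8655 lower in neutrophils against Mac1+, and 7552 higher and 9266 lower against Mac1- myeloblasts, with more features tested. A fit of the myeloblast populations alone gave 2274 higher and 2235 lower. Leaving out 1 array gave 710 to 2191 higher and 599 to 1987 lower in Mac1+ than in Mac1- myeloblasts, most without neutrophil array 1. Probe sets near background limit what can be read from them.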
